A study of Mus musculus with 5 samples.

Results

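The miR-23/24/27 clusters were represented by 5 of the 171 microRNA probes on the arrays. These were all the probes whose identifier carries 23a, 23b, 24, 27a or 27b after its prefix, namely 1org-23a, 1org-23b, 1org-24, 1org-27a and 1org-27b. The arrays compared total RNA of activated mouse T cells, CD4-positive and CD25-negative, with RNA of T cells of the same kind that had not been activated, called naive here. The activated cells had been activated overnight (1 array), for 3 days (2 arrays) or for 10 days (2 arrays), and each array held naive RNA in its other channel. Strain, sex, age, the stimulus and the culture were not given in the sources used here, nor whether the 2 arrays of a time held separate extracts or the 5 arrays shared 1 naive extract.

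Each value is a log ratio, read as log2, of activated over naive RNA. The direction takes Cy5 as the numerator, the usual order for such tables, which is not stated in the sources used here. Every sign would turn if it were Cy3. On days 3 and 10 the arrays had opposite dyes, and the values of the array with activated RNA in Cy3 were multiplied by -1. Before this turning the arrays of a pair correlated at r = -0.66 (day 3) and r = -0.43 (day 10) across 171 probes, which are not independent replicates. The array medians were not at 0: after turning they were -1.75 overnight, 0.20 and 1.42 on day 3, and -0.51 and -0.38 on day 10. Values are therefore given as deposited and also centred, that is, after subtracting each array's median. With 5 arrays the precision is limited, and signal over background was not analysed here.

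MicroRNAs are short RNAs that pair with messenger RNAs, mainly through their seed (bases 2 to 8), and lower the yield of protein from them. MiR-23, miR-27 and miR-24 are cut from a shared primary transcript, and mammals carry 2 copies of this unit: the a cluster holds miR-23a, miR-27a and miR-24-2, and the b cluster miR-23b, miR-27b and miR-24-1. In mouse helper T cells miR-24 and miR-27 are known to restrain type 2 responses and the output of interleukin 4. In human cells miR-23a and miR-23b are known to repress glutaminase, an enzyme of glutamine use.

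In the mouse RefSeq annotation (GRCm38.p6) the 3 hairpins of the a cluster span 404 bases of the plus strand at chr8:84208518-84208921. They overlap no protein-coding gene in that table and lie between Nanos3 and Zswim4. The b cluster spans 792 bases of the plus strand at chr13:63300484-63301275, inside the interval of the protein-coding gene Aopep and before Fancc. Whether it is exonic or intronic there was not analysed here. The mature sequences are shown because the probes of the a and b clusters have to tell nearly identical targets apart. They are from RefSeq (GRCm38.p6), written 5′ to 3′ with the seed in capitals, except that the capitals in the Mir23b hairpin mark its longest run shared with miR-23a-3p.
miR-23a-3p, chr8:84208563-84208583 (+): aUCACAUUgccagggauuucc
Mir23b hairpin, chr13:63300484-63300557 (+): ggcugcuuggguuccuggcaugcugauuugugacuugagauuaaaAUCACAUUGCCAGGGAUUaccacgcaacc
miR-27a-3p, chr8:84208727-84208747 (+): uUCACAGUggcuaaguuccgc
miR-27b-3p, chr13:63300760-63300780 (+): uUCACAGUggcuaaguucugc
miR-24-3p, chr8:84208875-84208896 (+) and chr13:63301251-63301272 (+): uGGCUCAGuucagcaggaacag

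The a and b sequences differed by a single base each. MiR-23a-3p and the closest stretch of the Mir23b hairpin were identical at 20 of 21 positions, with U19A as the only substitution, and shared a run of 18 bases. MiR-27a-3p and miR-27b-3p were identical at 20 of 21 positions, with C19U, counted from 1 at the 5′ end of the a sequence. Both differences lie outside the seed, so miR-27a-3p and miR-27b-3p share the seed UCACAGU, which no other mature mouse sequence of the table carries. The seed of miR-23a-3p differs from it by U7G, with the base of miR-23a-3p first. The seed of miR-24-3p is shared by 4 other mature sequences of the table, none with a probe of its name on the arrays. The mature miR-24-3p is the same from both clusters, so probe 1org-24 reads their sum. The probe sequences themselves, and how far an a probe also binds the b target, were not analysed here.

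GEO's platform annotation named a gene for 3 of the 5 probes: Mirn23a for 1org-23a, Mirn27a for 1org-27a and MIRN23B, a human symbol, for 1org-23b. Probes 1org-24 and 1org-27b had no annotated gene and are identified by their numbers. The size rule called a probe higher or lower when its log2 ratio averaged 1 or more away from 0 (2-fold) and all arrays of that time had the same sign. Single times were not tested in the main analysis, because both arrays of a dye swap could hold the same extracts. Values after ± are the distance of either array from the mean of its pair (n = 2 arrays) and hold the dye effect of the probe.

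**Figure D1:**
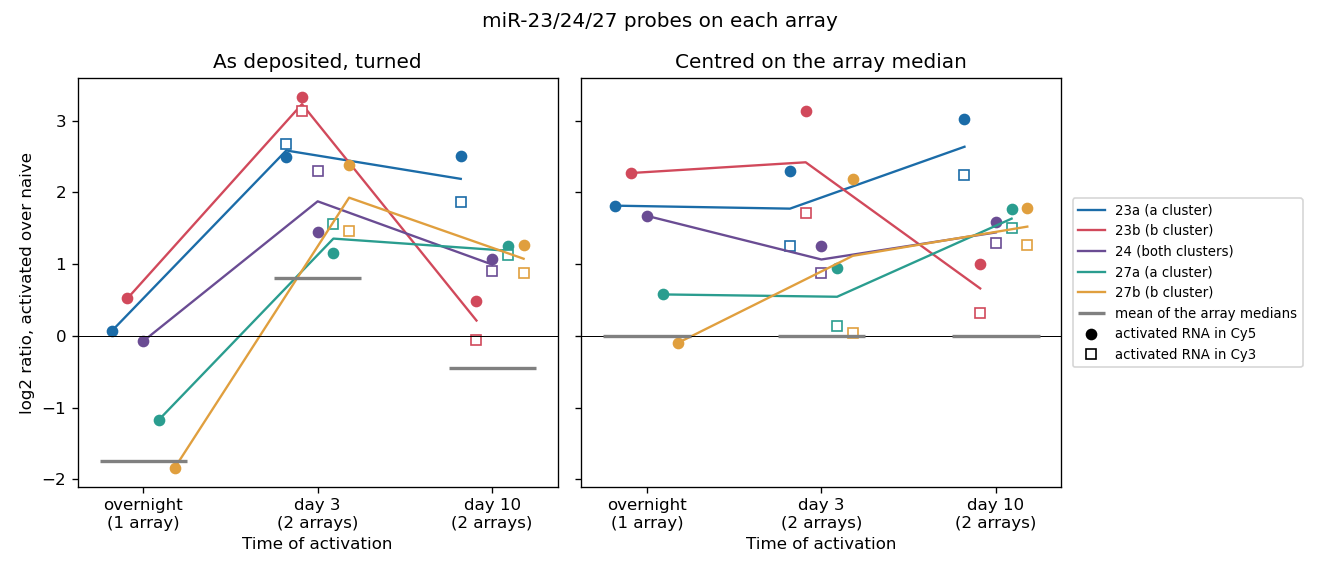
Log2 ratio of activated over naive RNA (y axis) for the 5 cluster probes overnight, on day 3 and on day 10 (x axis), as deposited (left) and centred (right). Points are arrays, filled with activated RNA in Cy5 and open with it in Cy3, lines join the means, and grey bars mark the mean of the array medians. 1org-23b lies below the other 4 probes on day 10 in both panels, at 0.21 as deposited and 0.66 centred.

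On day 3 each of the 5 cluster probes exceeded the naive level by 2-fold or more, with the highest log2 ratio for miR-23b of the b cluster and the lowest for miR-27a of the a cluster. The same rule called 38% of all 171 probes higher on day 3, and after centring 1org-27a (0.54) no longer met it. By day 10, as deposited, 1org-23a was still at 2.19 ± 0.32 (log2 ratio) while 1org-23b had returned close to the naive level, at 0.21 ± 0.27. After centring 1org-23b was at 0.66 on day 10, and both its arrays were above 0 (1.00 and 0.32). Probes 1org-27a, 1org-27b and 1org-24 stood close together on day 10, between 0.99 and 1.19. Overnight none of the 5 was 2-fold higher as deposited, and 1org-27a and 1org-27b were at least 2-fold lower, as were 73.1% of all probes. After centring 0 of the 5 were lower overnight, against 4.09% of all probes, and 3 were higher, against 21.6%.

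Probe 1org-23a, for the first microRNA of the a cluster, had a log2 ratio of 0.07 overnight. On day 3 it was at 2.50 with activated RNA in Cy5 and 2.67 with it in Cy3, and on day 10 at 2.51 and 1.87 in the same dye order. Both later times stood above the overnight array, and the day 3 and day 10 arrays overlapped. Centred, the values were 1.81 overnight, 2.30 and 1.25 on day 3, and 3.02 and 2.25 on day 10, all above 0.

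Probe 1org-23b, for the first microRNA of the b cluster, was at 0.52 overnight. Its log2 ratios were 3.33 (Cy5) and 3.13 (Cy3) on day 3, and 0.49 (Cy5) and -0.06 (Cy3) on day 10. Both day 3 arrays stood far above the other 3 arrays, and the day 10 pair enclosed 0. Centred, the order between overnight and day 3 was less clear, with 2.27 overnight and 3.13 and 1.71 on day 3. The centred day 10 values of 1.00 and 0.32 were the lowest of the 5 arrays.

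Probe 1org-24, for the microRNA made from both clusters, was at -0.08 overnight, 1.45 (Cy5) and 2.30 (Cy3) on day 3, and 1.08 (Cy5) and 0.91 (Cy3) on day 10. The day 3 arrays stood above the day 10 arrays without overlap, and both above the overnight array. Its day 10 mean of 0.99, a ratio of 1.99, missed the 2-fold threshold narrowly. Centred, it was at 1.67 overnight, 1.25 and 0.88 on day 3, and 1.59 and 1.29 on day 10, so that the order of days 3 and 10 was turned.

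Probe 1org-27a, of the a cluster, had log2 ratios of -1.17 overnight, 1.15 (Cy5) and 1.56 (Cy3) on day 3, and 1.25 (Cy5) and 1.12 (Cy3) on day 10. The arrays of days 3 and 10 overlapped, and the overnight array was the only one below 0. Centred, the overnight value was 0.58, above 0. The centred values were 0.95 and 0.14 on day 3 and 1.76 and 1.51 on day 10, without overlap between the days.

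Probe 1org-27b, of the b cluster, was at -1.84 overnight, the lowest of the 5. On day 3 its 2 arrays differed most, at 2.39 (Cy5) and 1.46 (Cy3), and on day 10 they were at 1.27 and 0.88 in the same order. Overnight lay below both pairs, and day 10 below day 3 without overlap. Centred, the probe was at -0.10 overnight, 2.19 and 0.04 on day 3, and 1.78 and 1.26 on day 10, with the day 10 arrays inside the range of the day 3 arrays.

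**Figure D2:**
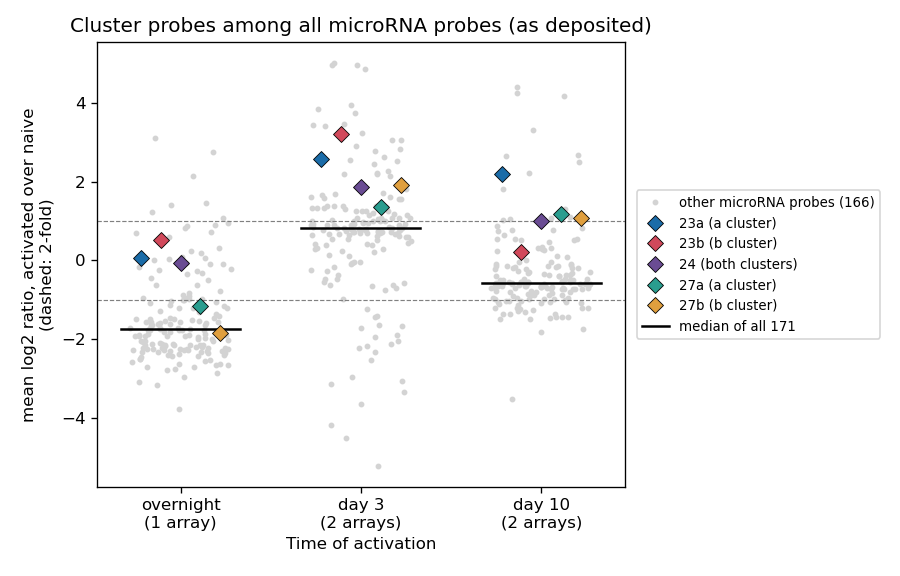
Mean log2 ratio of activated over naive RNA as deposited (y axis) at each time (x axis) for the 5 cluster probes (diamonds) and the 166 other microRNA probes (grey points, spread sideways for legibility). Black bars mark the median of all 171 probes and dashed lines a 2-fold difference; on day 10 1org-23b (0.21) is the cluster probe nearest to the median of -0.56.

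The counts stand beside those of all microRNA probes as follows. On day 3 the rule called 5 of the 5 cluster probes higher, where it called 38% of all 171 probes higher. The cluster median of the log2 ratio was 1.93, against 0.83 over all probes. After centring, 4 of the 5 were higher, against 15.2% of all probes, and 1org-27a was at 0.54.

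On day 10 the rule called 3 of the 5 higher (1org-23a, 1org-27a and 1org-27b), against 9.94% of all probes, and the cluster median was 1.07, against -0.56. After centring it called 4 of the 5, against 14.6%, and 1org-23b was the exception. Overnight it called 2 of the 5 lower, against 73.1% of all probes, and 0 of the 5 higher, against 4.09%. Centred, 3 of the 5 were higher overnight (1org-23a, 1org-23b and 1org-24), against 21.6%. The overnight calls rest on a single array without a dye swap.

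Centring moves each pair mean of a time by the same amount for every probe, so the rank of a probe among the 171 does not depend on it. Probe 1org-23b ranked 15th from the highest overnight, 12th on day 3 and 38th on day 10. The rank of 1org-23a was 20th, 19th and 9th in the same order of times, and that of 1org-24 was 25th, 29th and 18th. The miR-27 probes stood lowest overnight, where 1org-27a ranked 54th and 1org-27b 94th, and higher on day 3 (44th and 28th) and day 10 (12th and 14th). On day 10, 1org-23b thus ranked below the other 4 cluster probes, which lay between 9th and 18th.

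The alternative for single times was limma's linear model of the 5 arrays with terms for each time and for dye, adjusted by Benjamini-Hochberg over 171 probes. Its p-values cover the spread between these arrays alone, and this may be technical. Limma pooled this spread across probes, so the 5 cluster probes had the same SE on days 3 and 10 (0.45 as deposited). Overnight, where the single array has no spread of its own and is assumed to vary like those of days 3 and 10, it called 1org-27b lower as deposited, where it called 38.6% of all probes lower, and none of the 5 lower after centring, against 1.17%. On day 3 it called all 5 cluster probes higher, against 39.2% of all probes, with adjusted p = 1.72e-10 for 1org-23b, 2.32e-07 for 1org-23a and 0.0075 for 1org-27a (limma). On centred values it called 4 of the 5 higher on day 3, against 18.1%, and 1org-27a did not pass (log2 ratio 0.54, adjusted p = 0.31). On day 10 it called 1org-23a (adjusted p = 4.03e-05) and 1org-27a (adjusted p = 0.047) higher, against 7.02% of all probes. In this fit 1org-27b (adjusted p = 0.079), 1org-24 (0.096) and 1org-23b (0.70) did not pass on day 10 as deposited. On centred values it called 4 of the 5 higher on day 10, against 14%, and 1org-23b did not pass (log2 ratio 0.66, SE 0.38, adjusted p = 0.25).

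With the 3 times taken as 3 replicates and tested against 0, limma called none of the 5 and none of the 171 probes (0%). The means were 1.61 for 1org-23a, 1.32 for 1org-23b, 0.93 for 1org-24, 0.46 for 1org-27a and 0.39 for 1org-27b, with an SE of 0.93 for each that limma pooled across probes. The adjusted p-values lay between 0.77 and 0.86 (limma, n = 3 times). As deposited, this SE also holds the shifts of the array medians between the times. After centring the SEs lay between 0.37 and 0.50 and the adjusted p-values between 0.48 and 0.59 (limma). At an unadjusted threshold of 0.05 none of the 5 passed as deposited and 3 passed after centring. Of all 171 probes, 3 passed as higher and 8 as lower as deposited, and 10 and 1 after centring. Naive RNA served as the denominator throughout. If the arrays shared 1 naive extract, the spread among naive cells does not enter this test, and whether they did was not given.

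Between day 10 and day 3 a single cluster probe met the size rule, which asks for pair means at least 1 apart and pairs that do not overlap. Probe 1org-23b was lower on day 10 than on day 3, with a difference of log2 ratios of -3.02, or 8.09-fold. The rule called 41.5% of all probes lower on day 10, and their median difference was -1.22. The differences of the other 4 were -0.40 for 1org-23a, -0.17 for 1org-27a, -0.85 for 1org-27b and -0.88 for 1org-24. Centred, 1org-23b was at -1.76 and again met the rule, which then called 13.5% of all probes lower. 1org-27a met it in the other direction, at 1.09, where 28.1% of all probes were called higher. In the fit over 5 arrays 1org-23b passed as deposited (adjusted p = 4.61e-05), where 43.9% of all probes were called lower, and centred (adjusted p = 0.0064), where 7.6% were. Probe 1org-27a did not pass in either (adjusted p = 0.85 and 0.12).

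With 1 array of these pairs left out, 1org-23b stayed between -3.29 and -2.74, and 1 further probe met the rule in 3 of the 4 cases. It was 1org-24 (-1.31) once the day 3 array holding activated RNA in Cy5 was left out, and 1org-27b without its Cy3 partner (-1.31) or without the Cy5 array of day 10 (-1.05). The share of all probes called lower in these cases was not computed. With no array left out it was 41.5%, so the further calls are descriptions only.

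The a and b clusters were compared by the difference of the log2 ratios of the a and the b probe on each array, in which the array median cancels. For the miR-23 pair the a probe had the lower log2 ratio overnight and on day 3 and the higher one on day 10. Probe 1org-23a minus 1org-23b was -0.46 overnight, -0.83 (Cy5) and -0.46 (Cy3) on day 3, and 2.02 (Cy5) and 1.93 (Cy3) on day 10. The 3 earlier arrays were below 0 and both day 10 arrays above it. The pair means were 1.97 ± 0.05 on day 10 and -0.65 ± 0.18 on day 3, a change of 2.62. Over the 3 times the mean difference was 0.29 (SD 1.46, n = 3), and an exact two-sided sign-flip permutation test gave p = 1.0, where the smallest p that 3 times allow is 0.25.

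For the miR-27 pair the log2 ratios of the a and b probes were closer on day 10. Probe 1org-27a minus 1org-27b was 0.67 overnight, -1.24 (Cy5) and 0.10 (Cy3) on day 3, and -0.02 (Cy5) and 0.24 (Cy3) on day 10. The signs differed between the arrays of a pair at both times. With the dye effect of the pairs taken off, the overnight difference was 1.07 and the mean over the 3 times 0.20. The day 10 mean was 0.11 ± 0.13 and the day 3 mean -0.57 ± 0.67, a change of 0.68. Over the 3 times the mean was 0.07 (SD 0.62, n = 3), with p = 0.75 in the exact permutation test. The log2 ratio of the a probe was thus far above that of the b probe on day 10 for miR-23 (1.97) and close to it for miR-27 (0.11). Ratios to naive RNA do not show which microRNA was more abundant. The genes of miR-23b and miR-27b belong to the same cluster.

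**Figure D3:**
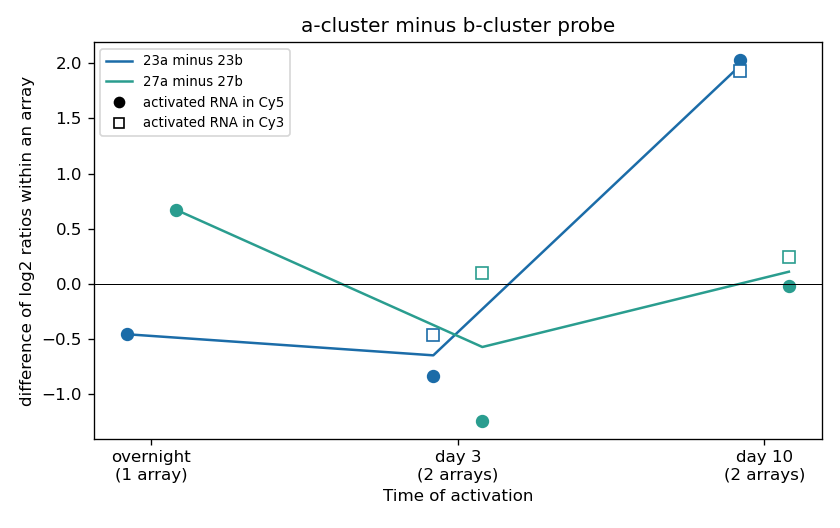
Difference of log2 ratios within an array, a-cluster probe minus b-cluster probe (y axis), for miR-23 and miR-27 at each time (x axis). Points are arrays, filled with activated RNA in Cy5 and open with it in Cy3, and lines join the means; the miR-23 difference lies below 0 on the 3 earlier arrays and at 2.02 and 1.93 on day 10.

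The change of these differences from day 3 to day 10 was also tested, in a comparison added after the data were seen. Limma was fitted over the 5 arrays to all 59 pairs of probes with 1 number and different letters, such as 1org-15a and 1org-15b, with p-values adjusted over the 59. The change was 2.62 for the miR-23 pair (SE 0.45, adjusted p = 2.46e-06) and 0.68 for the miR-27 pair (SE 0.45, adjusted p = 0.20). The fit called 50.8% of all pairs, so a change between the times was common among such pairs. Pairs share probes and are not independent, and limma pooled the SE across pairs. With 2 arrays against 2, the exact permutation test of the miR-23 change alone gave p = 0.333, the smallest it allows. By size the miR-23 change ranked 7th of the 59, after 6 pairs of let-7, miR-34 and miR-30 probes that were led by 1org-7e and 1org-7g (-3.56). The miR-27 change ranked 41st. On day 10 alone the miR-23 difference of 1.97 ranked 6th in size, where the median size over pairs was 0.64, and the miR-27 difference of 0.11 ranked 53rd.

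**Figure D4:**
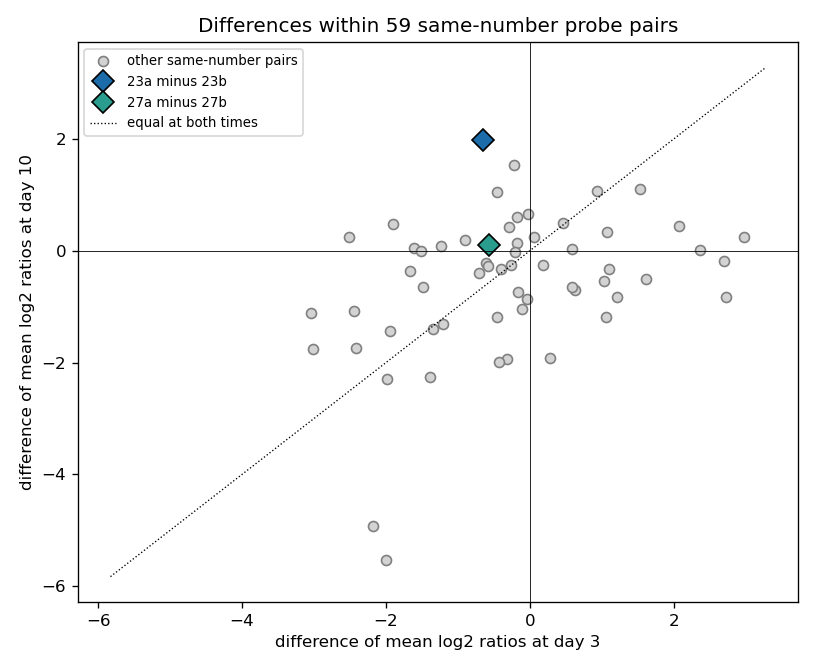
Difference of mean log2 ratios between the 2 probes of a pair on day 10 (y axis) against day 3 (x axis) for 59 pairs of probes with the same number and different letters, the earlier letter minus the later. The dotted line marks equal differences; the miR-23 pair lies at 1.97 on day 10 and -0.65 on day 3, and the miR-27 pair at 0.11 on day 10 and -0.57 on day 3.

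A further probe, 1org-189, carries a number that the RefSeq table lists as an older name of Mir24-1, a gene of the b cluster. It was singled out after its values were seen, is not one of the 5, and had no annotated gene. The other arm of the Mir24-1 hairpin is shown because, unlike miR-24-3p, it differs between the clusters; the seed is in capitals.
miR-24-1-5p, chr13:63301213-63301235 (+): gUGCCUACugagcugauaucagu
Probe 1org-189 had log2 ratios of -1.78 overnight, 1.31 (Cy5) and 1.79 (Cy3) on day 3, and -0.89 (Cy5) and -0.28 (Cy3) on day 10. Its mean was 1.55 on day 3, at least 2-fold higher as were 38% of all probes, and -0.58 on day 10. Centred, it was at 0.74 on day 3, under 2-fold, and its day 10 arrays at -0.38 and 0.11 lay on either side of 0. Its day 10 minus day 3 difference of -2.14 stood between those of 1org-23b (-3.02) and 1org-27b (-0.85). Centred, that difference was -0.88 and no longer met the rule (adjusted p = 0.21 in limma over 5 arrays).

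The probes whose time course was most like that of each cluster probe were found by the root mean square difference of log2 ratios over the 3 times, which centring leaves as it is. For 1org-23a they were 1org-21 (0.30), 1org-18 (0.45) and 1org-24 (0.81). Probe 1org-21 is for miR-21, a microRNA that many activated and dividing cells raise, and was at -0.09 overnight, 2.45 on day 3 and 2.66 on day 10. MiR-18 belongs to the miR-17 cluster, known from dividing lymphocytes.

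For 1org-23b the nearest were 1org-207 (0.44), 1org-297 (0.54) and 1org-132 (0.69). These 3 shared a high day 3 value, from 2.83 to 3.74, and a day 10 mean slightly below 0, from -0.56 to -0.27. The day 10 arrays of 1org-207 differed in sign, at 0.76 (Cy5) and -1.29 (Cy3). Probe 1org-23a was only 15th nearest to it (1.23), and 1org-27a and 1org-27b were 29th and 34th.

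For 1org-27a the nearest were 1org-130b (0.07), 1org-27b (0.51) and 2org-107 (0.61), and for 1org-27b they were 1org-301 (0.49), 1org-130b (0.50) and 1org-27a (0.51). MiR-130b and miR-301 are members of a single seed family. Probe 1org-130b was at -1.20, 1.39 and 1.30 over the 3 times beside -1.17, 1.36 and 1.19 for 1org-27a. For 1org-24 they were 1org-149 (0.49), 2org-19a (0.51) and 2org-107 (0.60), and 1org-27a was 6th nearest. The miR-27 probes of the 2 clusters were thus each among the 3 nearest of the other, while those for miR-23 were not. Probe 1org-23b was 7th nearest to 1org-23a. Over the 5 arrays 1org-27b was 6th nearest to 1org-27a, and 1org-23b was 12th nearest to 1org-23a. Likenesses over the 3 times rest on 3 values per probe, and the naive channel is common to all of them.

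**Figure D5:**
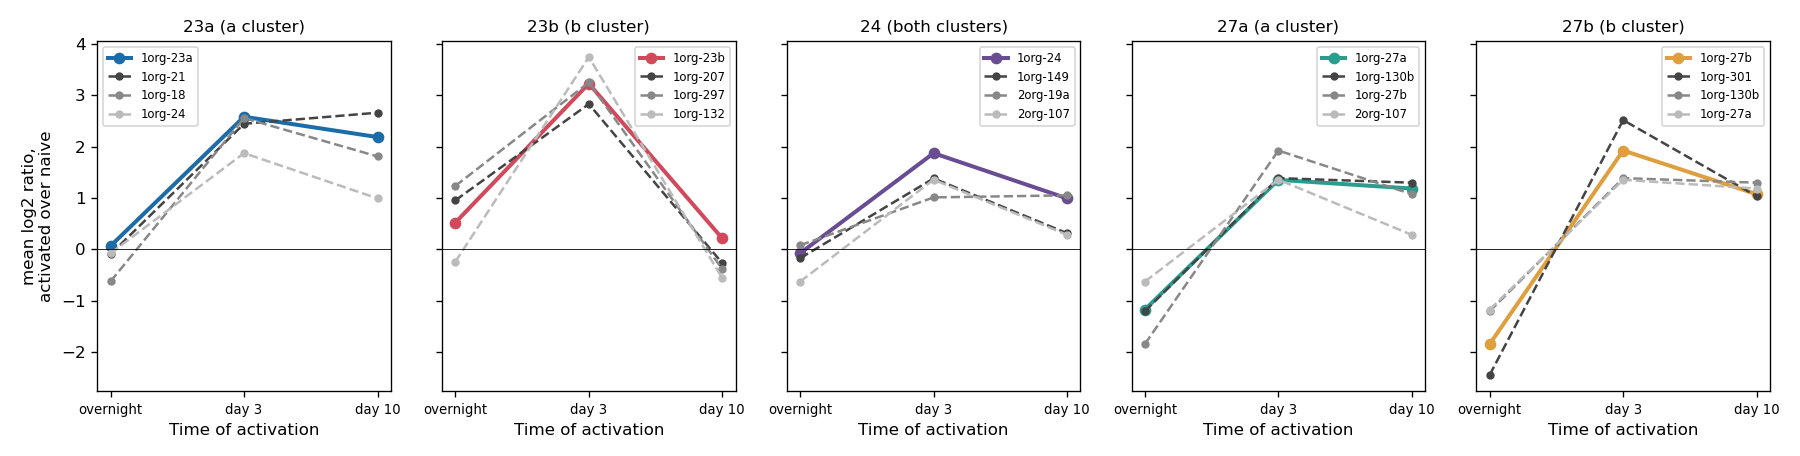
Mean log2 ratio of activated over naive RNA as deposited (y axis) at the 3 times (x axis), with a panel for each cluster probe (thick line) and its 3 nearest probes by root mean square difference (dashed). The means of 1org-207, 1org-297 and 1org-132, like that of 1org-23b, are highest on day 3 and between -0.56 and 0.21 on day 10, and 1org-21 and 1org-18 stay high with 1org-23a.

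A list of 13 other probes linked to lymphocyte activation (miR-21, miR-31, miR-96, miR-132, miR-146, miR-155, miR-182, miR-183, miR-210, miR-212, miR-214, miR-221 and miR-222) served for comparison. It was chosen with earlier results of these data known, so its counts are descriptions only. On day 3, 11 of the 13 were at least 2-fold higher, against 38% of all probes, and 0 lower, beside 22 of all 171. The list median was a log2 ratio of 3.74, above the 1.93 of the clusters. The largest were 2org-210 (5.03), known from hypoxia, 1org-31 (4.99), 2org-214 (4.96) and 1org-155 (4.88), whose microRNA is induced by antigen receptor signals. On day 10, 5 of the 13 were higher, against 9.94% of all probes, and 2 lower, beside 29 of all 171. The list median was then 0.51, below the 1.07 of the clusters. The median difference of day 10 and day 3 was -1.91 on this list and -0.85 in the clusters, beside -1.22 over all probes, and 8 of the 13 met the rule for lower, against 41.5% of all probes. After centring 6 of the 13 met it for lower, against 13.5% of all probes, and 3 for higher, against 28.1%. These medians are descriptions, and the list was not tested against the clusters.

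Markers of cell types were read as ratios, which cannot show whether a cell type was present. In bulk RNA, fewer cells of a type and less RNA per cell cannot be told apart. The 7 probes for lymphocyte microRNAs (miR-150, miR-142 and miR-181) ranged from -5.24 to -0.74 on day 3 and from -3.52 to -0.52 on day 10, with 6 and 4 of them at least 2-fold lower, beside 22 and 29 of all 171 probes. After centring 7 were lower on day 3 and 2 on day 10, beside 34 and 7 of all 171 probes. The myeloid probe 2org-223 was at -0.24 on day 3 and -1.44 on day 10, or -1.05 and -0.997 after centring, and the erythroid 1org-144 at 1.03 and -0.66. The 2 endothelial miR-126 probes were at 0.25 and 0.54 on day 3 and at -0.88 and -1.02 on day 10. The 10 stromal and muscle probes ranged from 0.49 to 1.72 on day 3, with 4 at least 2-fold higher, where 38% of all probes were, and from -1.12 to 0.003 on day 10. After centring, none of the erythroid, endothelial, stromal and muscle probes was 2-fold higher on day 3 or day 10. Of all probes, 15.2% and 14.6% were, so few such calls could occur among so few probes. The part of other cell types in the cluster values was not tested.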

How the data were processed

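The deposited table gives 1 value for each of 178 probes on each of 5 arrays, with none missing. The 7 probes for transfer and small nuclear RNAs were left out. Each deposited value was taken as a log2 ratio of the 2 channels, an assumption behind all folds. For log base, numerator, scanner, background correction and normalization, the sources used here give nothing about the authors' choices. Groups and dyes came from the labels. Arrays with activated RNA in channel 1 were multiplied by -1 and the arrays of a pair averaged. Centring subtracted each array's median over 171 microRNA probes.

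Tests used R 4.3.3 with limma 3.58.1 (lmFit with eBayes moderation, two-sided, Benjamini-Hochberg threshold 0.05), checked on simulated data, and exact permutation tests in scipy 1.17.1. The simulated arrays were independent and had no array-wide shift, so the check does not cover shared extracts or the array medians seen here. Summaries used pandas 2.3.3. The main fit had 1 value per time (n = 3), and the alternative had 5 arrays with time and dye terms. Named probes were the 5 cluster probes, the 3 nearest to each by root mean square difference, at most 4 examples of the activation list by size on day 3, and same-number pairs. Members and lists were chosen with earlier results of these data known. Sequences were matched by microRNA name to RefSeq, which gave mature 3p sequences for 4 of the 5 probes and a hairpin for the other.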

Additional observations from a re-analysis of the deposited data

Results flagged for a closer look

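A pair of results differed between days 10 and 3 by a test of the difference itself. The test was limma over the 5 arrays with time and dye terms, which takes the arrays of a dye swap as replicates. Those arrays may hold the same extracts. Both results hold 1org-23b and are not separate. The log2 ratio of 1org-23b was lower on day 10 than on day 3 by -3.02 (adjusted p = 4.61e-05 over 171 probes, where the fit called 43.9% of all probes lower and the median difference was -1.22), with both day 10 arrays (0.49 and -0.06) below both day 3 arrays (3.33 and 3.13). After centring the difference was -1.76 (adjusted p = 0.0064). In a test added after the data were seen, 1org-23a minus 1org-23b was higher on day 10 than on day 3 by 2.62. The limma adjusted p was 2.46e-06 over 59 pairs, 50.8% of which the fit called. The values were 2.02 and 1.93 on day 10 and -0.83 and -0.46 on day 3. With 2 arrays against 2, the exact permutation test of this change gave p = 0.333, the smallest it allows.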

How the results depend on the processing

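No count of day 3 or day 10 calls among the 5 cluster probes moved by more than 1.5 times under centring, scaling to the same spread, a threshold of 0.5, limma over 5 arrays or leaving out an array (5 higher on day 3 with either array left out, and 2 to 4 on day 10). Overnight counts depended on centring: 3 higher and 0 lower, against 0 and 2 as deposited, and the log2 ratio of 1org-27a became 0.58. Of all probes, 21.6% were higher and 4.09% lower overnight after centring, against 4.09% and 73.1% as deposited. At a threshold of 0.5, 1 probe was higher overnight, and limma over 5 arrays called 1 lower, or 0 after centring. With the dye effect taken off, 1org-27b was at -2.17 and 1org-27a at -1.10 overnight. Between days 10 and 3, 1 probe was higher after centring, against 28.1% of all probes. At a threshold of 0.5, 3 were lower, and 1 to 2 were lower with an array left out. The share of all probes was not computed for these last settings. As deposited at the main threshold, 41.5% of all probes were lower. The mean of 1org-27a minus 1org-27b over the times ranged from -0.23 to 0.29 with an array left out. It was -0.23 without the overnight array and -0.15 without the Cy3-activated array of day 3. The corresponding miR-23 mean ranged from 0.23 to 0.66, and its change from day 3 to day 10 from 2.44 to 2.80. Over all times no alternative called any of the 5. With likeness over 5 arrays in place of 3 times, 1 of the 3 nearest probes was shared for 1org-27a, 2 for 1org-24 and 3 for each of the others. Annotated probes alone were 3 of the 5. Signal over background could not be judged from ratios, and the changes with centring come from the array medians it removes.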
